A study of Mus musculus with 28 samples.

Results

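The genes described are 9 receptor and matrix genes of oligodendrocyte precursors: Pdgfra, Gpr17, Ptprz1, Cspg4, Bcan, Vcan, Cspg5, Lhfpl3 and Pcdh15. They were taken by symbol from the array annotation, as the probe sets assigned to exactly 1 of these symbols, and make up 9 of the 18193 genes and 25 of the 34945 probe sets with a single gene on the array. Each gene is given by its brightest probe set, and the other probe sets serve as a check. All 9 passed the filter on dim genes and were tested.

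Expression had been measured on 28 Affymetrix whole-genome mouse arrays, in 10 medulloblastomas (tumours of the cerebellum), 6 gliomas and 12 normal brain tissues of mice. All mice but 1 carried hGFAP-Cre, a recombinase driven by the human GFAP promoter in neural progenitors and glia, and were p53-/-. They differed in Rictor, which encodes a part of mTORC2, a kinase complex. Among the medulloblastomas were 3 tumours with hGFAP-Cre and p53-/- alone, 2 with Rictor+/- in addition and 5 with Rictor-/- in addition. Among the gliomas, 1 was p53-/- alone, 4 were also Rictor+/- and 1 was also Rictor-/-. The normal brains comprised 1 with p53-/- alone, 5 also Rictor+/-, 5 also Rictor-/- and 1 from a normal mouse. So the normal brains, but for the last, shared the transgene and the p53 loss of the tumours. Per the labels' protocols, histology of matching tissue put the tumour samples at mostly tumour cells, and the labels used here give neither the age of the mice nor the region of the normal brain tissue. Arrays are called by tissue (MB, GL, NB) and the code in their titles. Whether each array stands for its own animal is not stated, and the p-values therefore reflect only the variation among these arrays, part of which may be technical.

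Oligodendrocyte precursors are dividing glial cells of the adult and developing brain that give rise to myelinating oligodendrocytes. PDGFRA, the receptor for PDGF-AA, drives their division and survival, and the chondroitin sulfate proteoglycan NG2, the product of Cspg4, is their classical surface marker. As they mature, they pass through a stage marked by the receptor GPR17 and then switch on myelin genes. PTPRZ1 is a receptor phosphatase with a proteoglycan ectodomain, and brevican (Bcan) and versican (Vcan) are lecticans, proteoglycans that bind hyaluronan in the brain matrix. Astrocytes and radial glia also express Ptprz1 and Bcan, and fibroblasts around vessels and in the meninges also express Pdgfra.

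The promoter sequences show what the members share in sequence beside their expression. Promoters of 7 of the 9 members were taken from RefSeq's promoter table for GRCm38.p6, and Gpr17 and Cspg5 were not searched. The 250 bases before the annotated start were searched on both strands for 6 motifs of 6 letters. The first was the E-box CAGCTG and the second the E-box CAGATG, both of the kind bound by basic helix-loop-helix factors such as OLIG2. A pair were SOX-type motifs, the first of them AACAAT, the other being ACAAAG. The last were the TATA box, TATAAA, and the GC box, whose letters are GGGCGG. The 4 printed here are Pdgfra, the member that was higher in both tumour types, Vcan, whose brightest probe set differed most between glioma and normal brain, and Lhfpl3 and Pcdh15, which each hold a match that no other member had. They lie at chr5:75152001-75152250 (plus strand), chr13:89742513-89742762 (minus strand), chr5:22745804-22746053 (plus strand) and chr10:73821617-73821866 (plus strand), and capitals mark the matches.
Pdgfra: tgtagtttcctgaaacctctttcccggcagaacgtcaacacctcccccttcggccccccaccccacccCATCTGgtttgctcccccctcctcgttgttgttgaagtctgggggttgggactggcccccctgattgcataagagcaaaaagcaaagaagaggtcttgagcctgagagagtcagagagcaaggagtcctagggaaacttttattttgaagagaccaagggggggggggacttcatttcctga
Vcan: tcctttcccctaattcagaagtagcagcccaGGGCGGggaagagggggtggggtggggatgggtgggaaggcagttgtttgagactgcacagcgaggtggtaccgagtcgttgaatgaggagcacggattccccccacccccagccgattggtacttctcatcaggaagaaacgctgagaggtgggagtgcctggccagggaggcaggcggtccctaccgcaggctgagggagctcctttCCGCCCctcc
Lhfpl3: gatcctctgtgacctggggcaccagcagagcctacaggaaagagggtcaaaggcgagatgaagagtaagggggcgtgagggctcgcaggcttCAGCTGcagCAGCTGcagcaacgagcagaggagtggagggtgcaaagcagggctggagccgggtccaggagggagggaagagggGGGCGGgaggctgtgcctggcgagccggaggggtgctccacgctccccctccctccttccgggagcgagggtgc
Pcdh15: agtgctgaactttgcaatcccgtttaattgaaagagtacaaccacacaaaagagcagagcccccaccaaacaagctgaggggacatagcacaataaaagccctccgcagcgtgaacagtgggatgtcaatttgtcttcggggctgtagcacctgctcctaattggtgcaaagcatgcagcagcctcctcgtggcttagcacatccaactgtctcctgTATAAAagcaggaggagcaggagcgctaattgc
CAGCTG was found in Lhfpl3 alone, with 2 matches beginning 158 and 149 bases before the start, against 13.0% of all 32851 promoters with at least 1 match and 1.26% with 2 or more. CAGATG was found in Pdgfra alone, at 182 bases (14.4% of all promoters). TATAAA was found in Pcdh15 alone, at 33 bases (12.4%). The GC box was in 5 of the 7 (32.7% of all promoters), among them Vcan at 219 and 10 bases, and AACAAT (9.42%) and ACAAAG (16.5%) were in none of the 7. No match overlapped another. The members therefore had no searched E-box or SOX-type motif in common in these windows.

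Before the comparisons, the arrays were checked against their labels. Rictor, the targeted gene, had intensities of 68.8 to 236 in the 5 Rictor-/- medulloblastomas and 223 to 277 in the other 5, and 144 in the Rictor-/- glioma against 193 to 376 in the other 5. In normal brain the Rictor-/- arrays (213 to 444) and the Rictor+/- arrays (251 to 389) overlapped, so this probe set did not tell these labels apart. Gabra6, which granule neurons of the cerebellum use for a GABA receptor, was 1740.4 in NB B2, 4153 in NB C5 and 4918 in NB Z2, and no other normal brain exceeded 116. It was also 1638 in MB B6, 1324 in MB C6, 1014 in GL B7, 675 in GL B2 and 204 in GL A4. RNA quality was read from actin, whose 3' probe set exceeds the 5' one more as RNA degrades, and their quotient was 1.73 to 2.78 in glioma, 1.49 to 4.38 in medulloblastoma and 1.99 to 6.21 in normal brain.

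Glioma was compared with normal brain to ask which precursor genes the glial tumours express. In the gliomas, 8 of the 9 genes were higher than in normal brain, with 2.99-fold (Bcan) to 18.3-fold (Vcan) higher levels, and Cspg5 did not pass the test. At this threshold (limma, adjusted p under 0.05 over 13931 genes), 28.4% of all genes tested were higher and 25.5% were lower, so that a call alone is common here. The median log2 difference of the 9 was 3.23, beside 0.05 over all genes. The glioma and normal brain arrays did not overlap for 7 of the 9, all but Gpr17 and Cspg5, where 9.45% of all genes were higher without overlap. In bulk tissue, fewer cells of a type and less RNA per cell cannot be told apart.

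**Figure D1:**
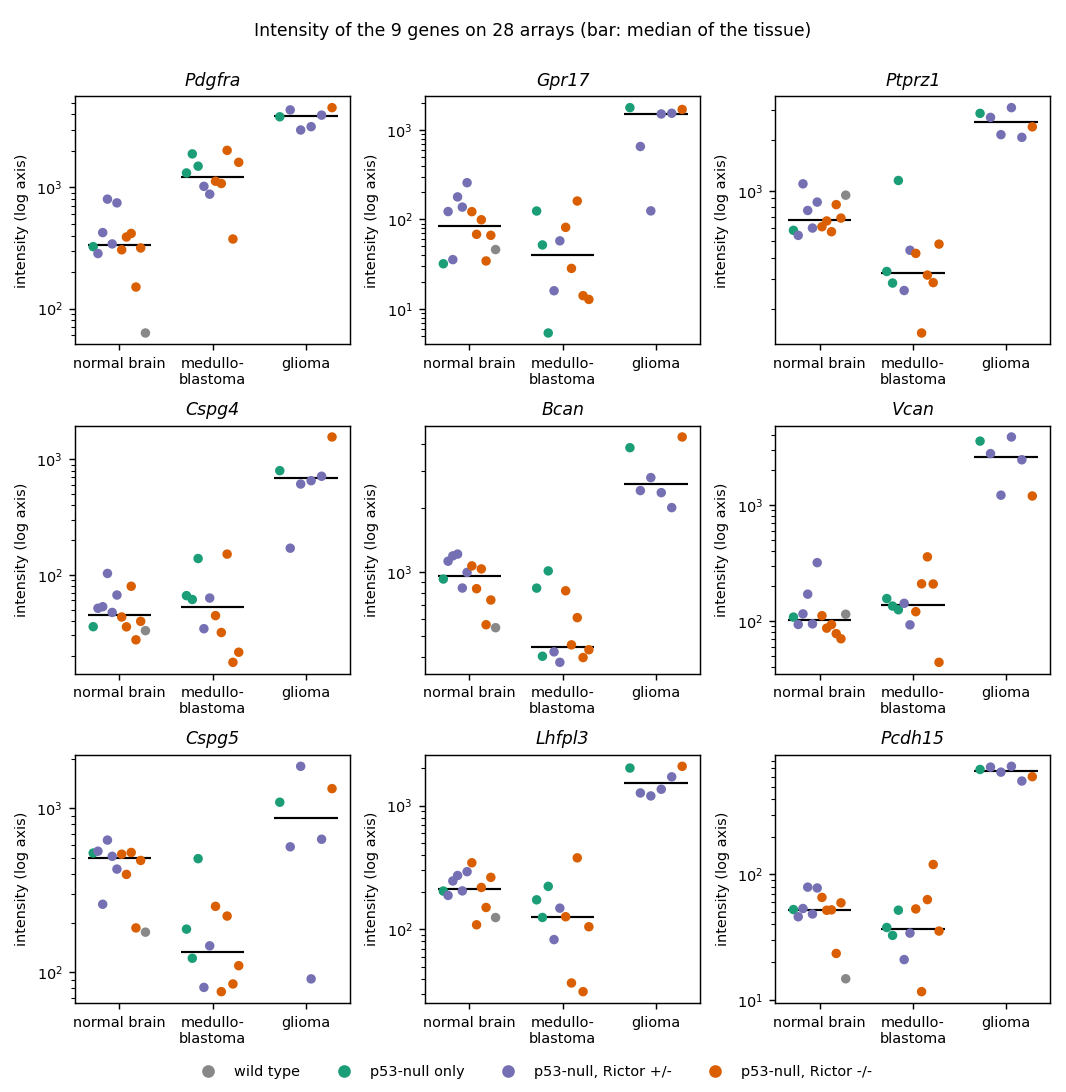
Intensity of each of the 9 genes on each of the 28 arrays, on log axes, by tissue (points: arrays, coloured by genotype; bars: tissue medians). The 6 gliomas sit above all other arrays for 7 genes, and 9 of 10 medulloblastomas lie above every normal brain for Pdgfra.

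Pdgfra, the receptor that defines the precursor stage, had intensities of 3821 in glioma A4, 4355 in B1, 2972 in B2, 3168 in B3, 3942 in B7 and 4546 in C3. In normal brain it ran from 62.8 (NB Z2) over a median of 332 to 799 (NB B4). Every glioma was above every normal brain, and the gliomas differed among themselves by only 1.53-fold. The log2 difference was 3.23 (SE 0.30, limma adjusted p = 3.2e-09), a 9.37-fold difference. Gpr17, the receptor of the stage before myelination, was 1771 in A4, 652 in B1, 125 in B2, 1505 in B3, 1534 in B7 and 1689.8 in C3. Normal brain ran from 32 (NB A6) over 83.7 to 257 (NB B7). Glioma B2 lay within the normal brain range, and the other 5 were above it (log2 difference 3.31, SE 0.60, limma adjusted p = 4.9e-05). Ptprz1, the receptor phosphatase, was 2876, 2722, 2150.1, 3109.9, 2073 and 2393 in A4, B1, B2, B3, B7 and C3, and 543 to 1098 with a median of 675 in normal brain. The gliomas lay within a 1.5-fold range and above every normal brain (1.79, SE 0.26, limma adjusted p = 2.0e-06).

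The proteoglycans came next. Cspg4, which encodes NG2, was 798 in A4, 170.2 in B1, 611 in B2, 653 in B3, 714 in B7 and 1561 in C3, and ran from 27.4 (NB C5) over 45.3 to 103 (NB B4) in normal brain. Glioma B1 was low and C3 high, a 9.17-fold range, with no overlap with normal brain (log2 difference 3.45, SE 0.39, limma adjusted p = 7.7e-08). Vcan, the lectican versican, was 3574 in A4, 2788 in B1, 1219 in B2, 3881 in B3, 2466 in B7 and 1200.0 in C3, and 70.1 to 319 with a median of 101 in normal brain. Its log2 difference of 4.20 (SE 0.34, limma adjusted p = 6.2e-10) was the largest of the 9 by the brightest probe sets. With the mean of its 8 probe sets, 2 of them with medians of 2.4 or less, it was 1.92 (limma adjusted p = 4.9e-09), below that of Gpr17, Cspg4, Pdgfra, Lhfpl3 and Pcdh15 taken the same way. Bcan, the lectican brevican, was 3859, 2425, 2791, 2371, 2016 and 4335 in A4, B1, B2, B3, B7 and C3, and 549 (NB Z2) to 1218 (NB B4) with a median of 965 in normal brain. Its log2 difference was 1.58 (SE 0.21, limma adjusted p = 6.8e-07), and no glioma reached into the normal range.

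Cspg5, which encodes the brain proteoglycan neuroglycan C, was the member whose gliomas differed most among themselves. It was 1089 in A4, 583 in B1, 1803 in B2, 91.4 in B3, 648 in B7 and 1318 in C3, a 19.7-fold range, and 176 (NB Z2) to 640.4 (NB B4) with a median of 496 in normal brain. Glioma B3 was below every normal brain, B1 was within their range and the other 4 were above it. The log2 difference of 0.62 (SE 0.44, limma adjusted p = 0.24) did not pass. Without glioma B3 it was 1.13 and passed (limma adjusted p = 0.0078). Within the arrays of 1 title prefix it was 1.48 (YZ, 4 gliomas, limma adjusted p = 0.022) or −0.73 (YZ2, only 2 gliomas, B3 and B7, adjusted p = 0.36).

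The last group comprised a pair of membrane proteins known as precursor markers from expression surveys. Lhfpl3, a tetraspan protein, was 2010.2 in A4, 1265 in B1, 1197 in B2, 1355 in B3, 1706 in B7 and 2076 in C3, and ran from 109 (NB C2) over 211 to 345 (NB C1) in normal brain. Its log2 difference was 2.75 (SE 0.34, limma adjusted p = 3.2e-07). Pcdh15, a protocadherin of the tip links of inner ear hair cells, was 687, 717, 654, 728, 555 and 601 in A4, B1, B2, B3, B7 and C3, the narrowest range of the members in glioma (1.31-fold). In normal brain it ran from 14.7 (NB Z2) over 52.3 to 79.1 (NB B4), and its log2 difference was 3.48 (SE 0.28, limma adjusted p = 6.3e-10), or 2.36 with the mean of its 3 probe sets. For both genes the gliomas lay apart from the normal brains.

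Medulloblastoma was compared with normal brain to ask the same of the cerebellar tumours. Here the members split: Pdgfra was higher, Ptprz1, Bcan, Cspg5 and Lhfpl3 were lower, and Gpr17, Cspg4, Vcan and Pcdh15 did not pass. Among all genes tested, 32.2% were higher and 32% were lower, beside 1 of 9 higher and 4 of 9 lower here. The median log2 difference of the 9 was −0.88, beside 0.01 over all genes. No member separated the tissues without overlap, where 8.76% of all genes were higher and 7.96% lower without overlap.

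Pdgfra ran from 374 (MB C5) over a median of 1219 to 2019 (MB C4) in medulloblastoma. All but MB C5 were above the highest normal brain, at 878 or more. Its log2 difference was 1.63 (SE 0.26, limma adjusted p = 5.1e-06), a 3.09-fold difference, and the medulloblastomas lay between the normal brains and the gliomas. Ptprz1 ran from 143 (MB C2) over 324 to 1149.7 (MB A6), and 9 of 10 tumours were below every normal brain (−0.99, SE 0.22, limma adjusted p = 0.00040). Bcan ran from 377 (MB B6) over 444 to 1016 (MB A6), with 6 of 10 below every normal brain (−0.88, SE 0.18, limma adjusted p = 0.00015). Cspg5 ran from 76.4 (MB C2) over 134 to 494 (MB A6), with 6 of 10 below every normal brain (−1.68, SE 0.38, limma adjusted p = 0.00040). MB A6 was thus the highest tumour for all 3 of these genes, and the summed intensity of 12 astrocyte markers was also highest there, 9756 against 1955 to 6845 in the other 9. The part of astrocyte RNA in these values was not tested. Lhfpl3 ran from 31.4 (MB C5) over 126 to 378 (MB C4), with 4 of 10 below every normal brain (−0.96, SE 0.30, limma adjusted p = 0.0068). Within the YZ arrays (5 medulloblastomas, 5 normal brains), Bcan (−0.71, limma adjusted p = 0.051), Cspg5 (−0.97, adjusted p = 0.087) and Lhfpl3 (−0.61, adjusted p = 0.28) no longer passed.

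For the other 4 members the difference did not pass. Gpr17 ran from 5.4 (MB A6) over 40.2 to 161 (MB C4), with 5 of 10 below every normal brain (−1.07, SE 0.53, limma adjusted p = 0.078). Gpr17 passed without MB C4 (−1.31, limma adjusted p = 0.031), without MB A3 (−1.21, adjusted p = 0.044) and without NB A6 (−1.32, adjusted p = 0.043). It also passed without the 3 Gabra6-rich normal brains (−1.32, adjusted p = 0.037) and with the actin ratio in the fit (−1.55, adjusted p = 0.010). With the title code as a fixed term in place of genotype, Gpr17 passed too (−1.50, limma adjusted p = 0.00064). That fit draws nothing from arrays with an unshared code, MB C4 and MB A3 among them, so it is not a separate check. Cspg4 ran from 17.5 (MB C5) over 52.8 to 151 (MB C4), a log2 difference of −0.05 with a 95% interval of −0.72 to 0.63. Vcan ran from 43.9 (MB C6) over 138 to 358 (MB C4), a difference of 0.36 with an interval of −0.23 to 0.94. Pcdh15 ran from 11.6 (MB C2) over 36.5 to 120 (MB C5), a difference of −0.39 with an interval of −0.87 to 0.10, which passed without MB C5 (−0.57, limma adjusted p = 0.024).

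The tumour types were also compared directly. All 9 genes were lower in medulloblastoma, where 14.8% of all genes were lower and 13.6% were higher. The log2 differences ran from −1.6 (Pdgfra, SE 0.31, limma adjusted p = 0.00034) to −4.38 (Gpr17, SE 0.64, limma adjusted p = 8.7e-06), with a median of −3.50 beside 0.01 over all genes. The arrays did not overlap for 7 of the 9, all but Gpr17 and Cspg5, where 3.56% of all genes were lower without overlap. Gpr17 overlapped because glioma B2 (125) was below MB C4 (161), and Cspg5 because glioma B3 (91.4) lay among the medulloblastomas. The order of the levels was therefore glioma, normal brain, medulloblastoma for Ptprz1, Bcan and Lhfpl3, and glioma, medulloblastoma, normal brain for Pdgfra. For Cspg4, Vcan, Pcdh15 and Gpr17 glioma was first and the difference between the other tissues did not pass the test, which for Gpr17 and Pcdh15 turned on single arrays, and for Cspg5 medulloblastoma was last and the difference between glioma and normal brain did not pass, which turned on glioma B3.

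The 3 probe sets of Pdgfra did not give 1 picture. The brightest, 1421917_at, and the dimmer 1421916_at were both higher in glioma than in medulloblastoma, the second with medians of 181 and 66.2 (log2 difference of medulloblastoma from glioma −1.27, SE 0.36, adjusted p = 0.013 by limma with every probe set in the fit). The 1438946_at probe set had medians of 19.1 in normal brain, 218 in glioma and 347 in medulloblastoma. It was 215 in GL A4, 254 in B1, 121 in B2, 80.8 in B3, 347 in B7 and 220.1 in C3, and 97.1 (MB C5) to 1186 (MB C4) in medulloblastoma. It was higher in both tumours than in normal brain (2.81, SE 0.43, limma adjusted p = 6.7e-06 in glioma and 3.54, SE 0.37, adjusted p = 1.0e-08 in medulloblastoma), and between the tumours its difference was 0.72 (SE 0.45, adjusted p = 0.31).

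Within each array, the log2 ratio of 1421917_at to 1438946_at was 1.72 ± 0.80 (SD, n = 10) in medulloblastoma and 4.29 ± 0.57 (n = 6) in glioma. The tumour types did not overlap, at 0.53 to 2.65 against 3.48 to 5.19. The difference was −2.57 (exact two-sided permutation p = 0.00025, the smallest these numbers allow, adjusted over 3 probe pairs p = 0.00037), and for 1421916_at over 1438946_at it was −2.13 (exact permutation p = 0.00025, adjusted p = 0.00037). The ratio of the other two differed by 0.44 (exact permutation p = 0.083, adjusted p = 0.083). These ratios were chosen after the values were seen and show unequal change of the probe sets, not which transcript changed. With the mean of all probe sets, the Pdgfra difference between medulloblastoma and glioma was −0.71 and did not pass (limma adjusted p = 0.12).

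**Figure D2:**
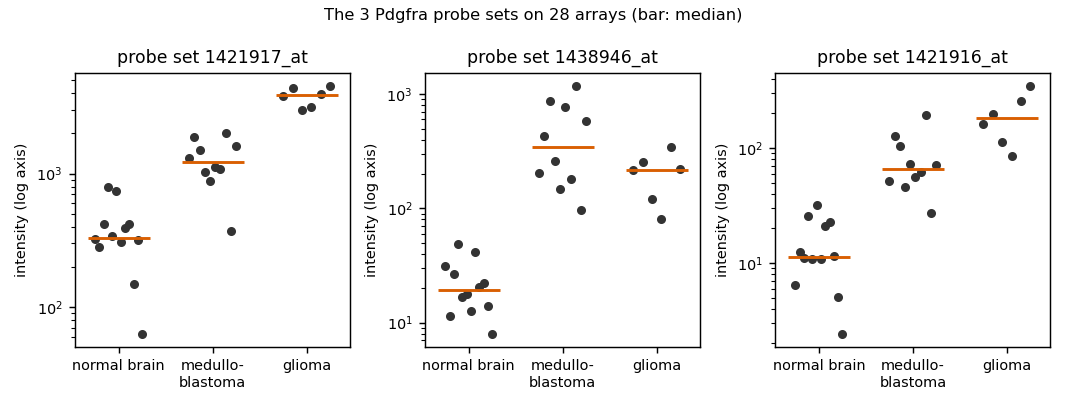
Intensity of the 3 Pdgfra probe sets on each array, on log axes, by tissue (bars: medians). Glioma is highest for 1421917_at and 1421916_at, while for 1438946_at medulloblastoma has the higher median, 347 against 218.

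Probe sets of the other members gave no change of direction between called results. Vcan has 8 probe sets, Ptprz1 and Pcdh15 have 3 each, Bcan, Cspg4 and Lhfpl3 have 2 each, and Gpr17 and Cspg5 have 1. The second probe set of Cspg4 had medians of 37.7 in normal brain, 364 in glioma and 41.3 in medulloblastoma, and that of Bcan was likewise highest in glioma and lowest in medulloblastoma, the same orders as the brightest. 1 of the dimmer Pcdh15 probe sets was lower in medulloblastoma than in normal brain (medians 7.3 and 13.8, −0.47, limma adjusted p = 0.010), where the brightest did not pass. Of the Vcan probe sets, 2 dim ones (medians of 2.4 or less in every tissue) did not differ between glioma and normal brain by the test, at log2 differences of −0.08 and −0.23, and the other 6 were higher in glioma.

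In medulloblastoma Pdgfra stood apart from the other members within the same arrays, a pattern chosen after the values were seen. The tissue comparison of these arrays had already called Pdgfra higher and no other member. The ratios restate that comparison and are no separate support for it. The log2 ratio of Pdgfra to each of the other 8 was higher in medulloblastoma than in normal brain, by 1.52 (over Vcan, permutation p = 0.00080, adjusted over 8 tests p = 0.00080) to 3.24 (over Cspg5, permutation p = 2e-05, the smallest the 100000 resamples can give, adjusted p = 2.7e-05). Over Cspg4 it was 4.36 ± 0.73 (SD, n = 10) in the cerebellar tumours and 2.60 ± 0.66 (n = 12) in the normal brains, and all 10 tumours were above every normal brain. Over Vcan, Gpr17 and Pcdh15, 9 of 10 tumours were. Of 5 fibroblast and leptomeningeal markers, 2 were higher in medulloblastoma than in normal brain, beside 32.2% of all genes, and 3 did not pass. The higher ones were Col3a1, a fibrillar collagen (2.40, SE 0.54, limma adjusted p = 0.00038), and Lum, the proteoglycan lumican (0.99, SE 0.42, limma adjusted p = 0.043). The summed intensity of the 5 was 315 to 1505 (median 1024) in medulloblastoma, 161 to 2318 (584) in normal brain and 179 to 2337 (478) in glioma. NB B2 and GL B2 alone made the upper ends, and no other normal brain exceeded 884 and no other glioma 584. The part of such cells in the Pdgfra values was not tested.

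Single tumours differed in which members were high. Among the medulloblastomas, MB C4 was highest for 5 of the 9 (Pdgfra, Gpr17, Cspg4, Vcan and Lhfpl3), and the summed intensity of 10 other precursor genes was highest there too, 2529 against 372 to 1448 in the other 9. MB C5 was lowest for Pdgfra, Cspg4 and Lhfpl3 and highest for Pcdh15. MB C2 was lowest for Ptprz1, Cspg5 and Pcdh15. Among the gliomas, C3, the only Rictor-/- one, was highest for Pdgfra, Cspg4, Bcan and Lhfpl3 and lowest for Vcan. Glioma B3 was highest for Ptprz1, Vcan and Pcdh15 and lowest for Cspg5, and its summed mature oligodendrocyte markers were the highest, 18507 against 4055 to 6916 in the other 5. Glioma B2 was highest for Cspg5 and lowest for Pdgfra, Gpr17 and Lhfpl3, and glioma B7 lowest for Ptprz1, Bcan and Pcdh15. No glioma was high or low for all 9.

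**Figure D3:**
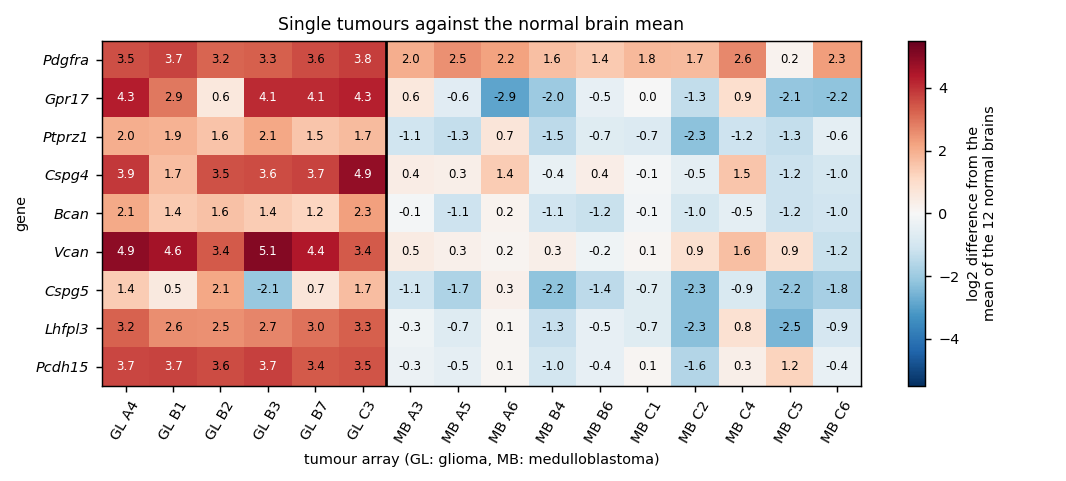
Log2 difference of each tumour from the mean of the 12 normal brains, by gene (rows) and array (columns; a line divides gliomas from medulloblastomas). Pdgfra is above the normal brain mean in all 16 tumours, least in MB C5, and Cspg5 in glioma B3 is the only value below that mean among the gliomas.

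In normal brain, NB B4 was highest for Pdgfra, Cspg4, Bcan, Cspg5 and Pcdh15, and the wild-type NB Z2 was lowest for Pdgfra, Bcan, Cspg5 and Pcdh15. The 3 Gabra6-rich arrays had the lowest Cspg5 of the 12, 176 in NB Z2, 187 in NB C5 and 260 in NB B2, against 396 to 640.4 in the rest. Ptprz1 was high in the same arrays, 941, 827 and 1098, against 543 to 856. Without these 3, the 8 members called in glioma against normal brain were called again. In medulloblastoma against normal brain, 6 were called without them, the 5 of the main fit and Gpr17. Bcan and Pdgfra were lowest in NB Z2 (549 and 62.8) and NB C5 (567 and 150), beside medians of 444 and 1219 in medulloblastoma. As most normal brains lacked Gabra6, brain region and tumour cannot be told apart in the medulloblastoma differences.

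The members were set beside each other over the 28 arrays as a description, since the arrays share tissue and scaling. Pearson's r was 0.91 for Cspg4 with Lhfpl3 and for Bcan with Lhfpl3, and 0.20 for Pdgfra with Cspg5, the lowest pair. After each tissue's mean was removed, Cspg4 with Lhfpl3 gave 0.72, Bcan with Cspg5 0.65 and Vcan with Cspg5 −0.21. Of all genes tested outside the 9, those most like a member over the 28 arrays were Trib2 for Pdgfra (0.92) and Arhgef26 for Ptprz1 (0.97). For Gpr17 it was Sox8, a SOX factor of the oligodendrocyte lineage (0.92), and for Cspg4 Matn4, a matrilin (0.94). For Bcan it was Pik3r1 (0.93), for Vcan Fam89a (0.96) and for Cspg5 Cbr3 (0.88). For Lhfpl3 it was Cacng4, an auxiliary protein of AMPA receptors (0.96), and for Pcdh15 Trim25 (0.94). Over the residuals, Cacng4 was again first for Lhfpl3 (0.84), Matn4 for Cspg4 (0.75) and Cbr3 for Cspg5 (0.81), while Ednrb, the endothelin receptor B, was first for Ptprz1 (0.87) and St6gal1, a sialyltransferase, for Pdgfra (0.77).

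The members were set beside other genes of the lineage, a list chosen with earlier results of these data known and so no independent check. Of 10 other precursor genes tested, all 10 were higher in glioma than in normal brain (28.4% of all genes), with a median log2 difference of 3.31. Nkx2-2 (3.77, SE 0.33, limma adjusted p = 1.6e-09), Sox10 (3.57, SE 0.31, adjusted p = 1.3e-09) and Olig2 (3.54, SE 0.33, adjusted p = 4.3e-09), transcription factors of the lineage, and Matn4 (3.54, SE 0.45, adjusted p = 4.3e-07) led. The lowest of the 6 gliomas had a summed intensity of 7129, against at most 2115 in normal brain. In medulloblastoma 1 of the 10 was higher than in normal brain and 3 were lower, beside 32.2% and 32% of all genes. The higher one was C1ql1 (1.04, SE 0.27, limma adjusted p = 0.0016). Sox10 (−0.78), Susd5 (−0.74) and Sox6 (−0.60) were lower, while Olig2 was at 0.52 (SE 0.29, limma adjusted p = 0.12). Against glioma 9 of 10 were lower in medulloblastoma, led by Sox10 (−4.34, SE 0.33, limma adjusted p = 4.3e-10), Susd5 (−4.21) and Nkx2-2 (−4.15).

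Genes of the later stages divided. Over all genes, 28.4% were higher and 25.5% lower in glioma, and 32.2% higher and 32% lower in medulloblastoma. Of 5 genes of committed, not yet myelinating oligodendrocytes, 4 were higher in glioma, Itpr2 (1.92), the growth factor gene Bmp4 (1.80), Bcas1 (1.80) and Tcf7l2 (1.10), and Enpp6 (0.67, limma adjusted p = 0.16) did not pass. Of 11 mature oligodendrocyte markers tested, 7 were lower in glioma and none was higher, led by the myelin genes Mobp (−3.33, SE 0.75, limma adjusted p = 0.00056) and Mal (−3.05, SE 0.50, limma adjusted p = 1.4e-05), and all 11 were lower in medulloblastoma, led by Mobp (−4.98) and Mal (−3.56). Of 12 astrocyte markers 4 were lower in glioma, among them the connexins Gjb6 (−2.88) and Gja1 (−2.58), and 8 did not pass. In medulloblastoma 10 of the 12 were lower, led by Gjb6 (−3.83) and Fgfr3 (−2.74), Sox9 was higher (1.49, SE 0.26, limma adjusted p = 1.4e-05) and Gfap (−0.53, limma adjusted p = 0.25) did not pass. The summed astrocyte markers were 5386 to 14048 in glioma, 1955 to 9756 in medulloblastoma and 10920 to 19815 in normal brain, and their part in the Ptprz1 and Bcan differences was not tested.

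The partners of the members were read by role. Among the PDGF ligands and the other receptor, Pdgfa, which encodes the ligand of PDGFRA, was higher in glioma (0.64, SE 0.16, limma adjusted p = 0.0015) and in medulloblastoma (1.22, SE 0.14, adjusted p = 3.3e-08) than in normal brain, and higher in medulloblastoma than in glioma (0.58, SE 0.17, adjusted p = 0.011). Its medians were 264 in normal brain, 418 in glioma and 623 in medulloblastoma. Pdgfb, another ligand gene, was lower in both tumours (−0.78 and −0.85), Pdgfd was lower in medulloblastoma (−0.85, SE 0.38, limma adjusted p = 0.049), and Pdgfrb, the receptor of mural cells, did not pass in any of the 3 comparisons (−0.54, −0.26 and 0.28). Of 8 mural cell markers tested, 2 were lower in glioma, Acta2 (−1.26) and Vtn (−1.17), near the 25.5% of all genes. None was higher, beside 28.4% of all genes. In medulloblastoma Vtn (−0.91) and Notch3 (−0.50) were lower and Abcc9 (0.88) was higher, beside 32% lower and 32.2% higher over all genes. The summed intensity of the mural cell markers was 948 to 1769.7 in glioma, 818 to 2305 in medulloblastoma and 1165 to 2553 in normal brain. Their part in the Cspg4 values, since mural cells also express NG2, was not tested.

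Of the ligands and binding partners of PTPRZ1, Ptn, which encodes pleiotrophin, was higher in glioma (0.93, SE 0.17, limma adjusted p = 4.0e-05) and in medulloblastoma (0.46, SE 0.15, adjusted p = 0.0078). Mdk, which encodes the related midkine, was higher in medulloblastoma than in normal brain (2.29, SE 0.41, limma adjusted p = 2.5e-05) and than in glioma (1.52, SE 0.50, adjusted p = 0.023), with medians of 44.4 in normal brain, 92.2 in glioma and 352 in medulloblastoma. Cntn1, the adhesion molecule contactin, was higher in glioma (0.59, limma adjusted p = 0.045) and lower in medulloblastoma (−2.25, SE 0.22, adjusted p = 1.75e-09). Ptprg, the nearest relative of Ptprz1, was higher in both (0.94 and 1.19), and Nrcam was lower in medulloblastoma (−1.29). In glioma 3 of these 5 were higher and none lower, beside 28.4% and 25.5% of all genes. In medulloblastoma 3 were higher and 2 lower, beside 32.2% and 32% of all genes.

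The partners of Bcan and Vcan in the matrix were read next. Of 12 lectican and hyaluronan partners, 8 were higher and 3 lower in glioma (28.4% and 25.5% of all genes), with a median log2 difference of 1.62. The glycoprotein gene Tnc (3.03, SE 0.40, limma adjusted p = 7.75e-07), the hyaluronan synthase Has2 (2.96, SE 0.32, adjusted p = 3.6e-08), the lectican aggrecan, Acan (2.0, SE 0.31, adjusted p = 7.2e-06), and the hyaluronan receptor Cd44 (1.86, SE 0.41, adjusted p = 0.00037) led, and Hapln4 (−1.84), Has1 (−1.44) and Hapln2 (−1.17) were lower. In medulloblastoma 4 were higher and 7 lower (32.2% and 32% of all genes), the lower ones led by Tnr, the lectican-binding tenascin (−2.46, SE 0.35, limma adjusted p = 1.1e-06), and the link proteins Hapln4 (−2.42), Hapln1 (−2.30) and Hapln2 (−1.98), while Tnc (1.28), Cd44 (1.25), Has2 (0.80) and Has3 (0.75) were higher. Between the tumours, 7 of the 12 were lower in medulloblastoma, led by Tnr (−4.24) and Hapln1 (−3.94), and Has3 was higher (1.23).

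Enzymes that build or cut the proteoglycans were read from lists as well. Of 18 genes of chondroitin sulfate chain synthesis tested, 3 were higher and 5 lower in glioma, beside 28.4% higher and 25.5% lower over all genes, so the list did not exceed the background among the higher genes and was near it among the lower. The sulfotransferases Chst7 (1.93) and Chst11 (1.6, SE 0.23, limma adjusted p = 2.2e-06) and the polymerase Chsy1 (1.21) were higher, and Chsy3 (−1.13) was among the lower. In medulloblastoma 3 were higher and 8 lower (32.2% and 32% of all genes), led by Chsy3 (−2.03), Csgalnact1 (−1.51) and B3gat3 (−1.44) among the lower ones and Chsy1 (1.58) among the higher ones. Chst11 was lower in medulloblastoma than in glioma by −2.72 (SE 0.24, limma adjusted p = 4.8e-09). Of 6 ADAMTS proteases, 4 were higher in glioma (28.4% of all genes), Adamts9 (1.97), Adamts5 (1.70), Adamts1 (1.68) and Adamts20 (1.22), and Adamts15 was lower (−0.86). In medulloblastoma 2 of the 6, Adamts20 (1.94) and Adamts1 (1.70), were higher, near the 32.2% of all genes, and none was lower.

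The markers of the other cells give the setting, beside the same shares of all genes (28.4% higher and 25.5% lower in glioma, 32.2% and 32% in medulloblastoma). All 8 neuron markers were lower in glioma and 7 of 8 in medulloblastoma, where Stmn2 (−0.41, limma adjusted p = 0.33) did not pass. All 4 proliferation genes tested were higher in both tumours, Top2a by 4.54 (SE 0.42, limma adjusted p = 3.9e-09) in glioma and 5.26 (SE 0.37, adjusted p = 8.5e-12) in medulloblastoma. Of 5 granule cell markers, Neurod1 (3.0), Zic1 (2.16) and Cbln1 (1.59) were higher in medulloblastoma and none passed in glioma. Of 5 microglia markers Aif1 was higher in both tumours (1.03 and 1.28), and P2ry12, Csf1r and Tmem119 were lower in medulloblastoma, by −1.08, −0.78 and −0.68. Of 5 endothelial markers Flt1 was lower in both (−0.59 and −0.83) and the other 4 did not pass. No marker on these lists was at 0 on every array.

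Rictor genotype was compared within tissues to ask whether its loss changed these genes. No member passed limma's test in any of the 5 genotype comparisons, in which 0.00718%, 0.00718%, 0%, 0% and 0.0215% of all genes passed. These were Rictor-/- against p53-/- alone and against Rictor+/- in medulloblastoma, Rictor-/- against Rictor+/- in normal brain, the difference of that contrast between medulloblastoma and normal brain, and Rictor-/- against Rictor+/- in glioma. At an unadjusted p under 0.05, 0, 0, 1, 0 and 2 of the 9 members were found, where 4.34%, 1.43%, 3.15%, 1.9% and 4.57% of all genes were. In medulloblastoma, Pdgfra had means of 1566 ± 293 (SD, n = 3) with p53-/- alone, 948 ± 99.6 (n = 2) with Rictor+/- and 1240.0 ± 619 (n = 5) with Rictor-/-, overlapping groups, and the log2 difference of the last from the first was −0.52 with a 95% interval of −1.37 to 0.34. The intervals of the other members were as wide or wider in this comparison, but for Bcan (−1.06 to 0.22).

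In normal brain all 9 differences of Rictor-/- from Rictor+/- were below 0, from −0.17 (Ptprz1) to −0.73 (Gpr17), and without NB C5 that of Cspg5 was 0.08. Vcan, with an unadjusted p of 0.048, had 70.1 to 111 in the 5 Rictor-/- and 93.2 to 319 in the 5 Rictor+/- brains, which overlapped (−0.67, SE 0.30, limma adjusted p = 1.0). In glioma the single Rictor-/- tumour differed from the 4 Rictor+/- tumours by 1.72 for Cspg4 (SE 0.78, unadjusted p = 0.039, limma adjusted p = 1.0) and 0.86 for Bcan (SE 0.41, unadjusted p = 0.046, limma adjusted p = 1.0). A lone tumour has no spread of its own, so that of the other groups stood in for it, and its values, 1561 and 4335, lay above all 4 (at most 714 and 2791).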

How the data were processed

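RNA of 28 frozen samples was hybridised to 1-colour Affymetrix mouse arrays. The authors deposited 1 linear intensity per probe set and array, made with MAS5 and GCOS per the submitters' processing notes, whose versions are not given in those notes. Each array had been scaled to one trimmed mean (99.1 to 99.5 after trimming 2% at each end), and median intensities were 18.8 to 27.8, so dim genes carry more error. No detection calls were used, and precision is limited by how many arrays there are.

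Genes were assigned from GEO's platform annotation (34958 with 1 symbol, of which 34945 were not control probe sets, 932 with several, 9211 with none). Values were tested as log2 of intensity plus 6.3, the 25th percentile of the table, which understates changes of dim genes. The brightest probe set stood for a gene, and 13931 genes whose mean exceeded the 30th percentile (3.88) were tested. Tissue comparisons came from 1 limma fit (lmFit, eBayes with trend) of all 28 arrays with tissue and genotype. Genotype comparisons came from fits of the 10 medulloblastomas or the 12 normal brains, and of 10 group means over all arrays for the glioma and between-tissue contrasts. All p-values are two-sided, and adjusted ones are Benjamini-Hochberg values. The 95% intervals use the normal distribution and are narrower than limma's moderated t test implies. That of Gpr17 in medulloblastoma against normal brain, −2.10 to −0.04, leaves out 0 at an unadjusted limma p of 0.053. Alternatives were the pseudocount, the filter, quantile normalization, the mean of all probe sets, the actin ratio, the title prefix, a block by code and arrays left out. Scripts were tested on simulated data.

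The members and lists were chosen with earlier results of these data known. All members were named in every comparison, and of each list up to 4 called genes with the largest difference per tissue comparison (2 of the brightest where fewer than 2 were called); others were chosen after their values were seen. Promoters came from RefSeq GRCm38.p6. Tests were run with limma 3.58.1 in R 4.3.3 and scipy 1.17.1, tables with pandas 2.3.3 and numpy 2.4.6 in Python 3.11.15, and plots with matplotlib 3.10.9.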

Additional observations from a re-analysis of the deposited data

Results flagged for a closer look

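3 values lay far from the rest of their group by Dixon's criterion, among 54 groups of member values examined, where chance marks about 1 in 20. Pdgfra in medulloblastoma C5 was 374.4, and the next lowest of the 10 medulloblastomas was 878. Cspg4 in glioma B1 was 170.2, and the next lowest of the 4 Rictor+/- gliomas was 611. Pcdh15 in normal brain C5 was 23.4, and the next lowest of the 5 Rictor-/- normal brains was 51.7.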

How the results depend on the processing

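The count of members called was 8 or 9 over 44 alternatives in glioma against normal brain, 7 to 9 in medulloblastoma against glioma, and 5 or 6 in medulloblastoma against normal brain but for 2 (Pdgfra and Ptprz1) within the YZ arrays. No called difference changed sign. The arrays' codes are shared by a tumour and a normal brain in 11 cases, and for codes B4, A6 and C1 their title prefixes differ. Deviations of such arrays correlated at −0.12 to 0.35, which cannot show whether they came from the same animal. The main fits did not pair arrays by code. With the code as a block (a fixed term in place of genotype), 9 members were called in glioma against normal brain (Cspg5 at 1.18, limma adjusted p = 0.040), 6 in medulloblastoma against normal brain (Gpr17 at −1.50, adjusted p = 0.00064) and 9 between the tumours. Arrays with an unshared code add nothing to that fit, among them GL B3, MB C4 and MB A3. No code joins a glioma and a medulloblastoma, so the tumours are compared there only through normal brains. The fits within 1 title prefix had no genotype term, and the YZ2 arrays hold only 2 gliomas. Within YZ2, Cspg5 (−1.08, limma adjusted p = 0.27) and Pdgfra (−1.61, adjusted p = 0.097) no longer passed between the tumours. For Pdgfra the difference itself was near that of the main fit (−1.60). Genes called over the whole table fell from 7510 to 3677 in glioma against normal brain within YZ2, and from 3959 between the tumours to 1093 with the block, 2599 within YZ, 1437 within YZ2 and 2024 without MB B6 and gliomas B7, B2 and A4; the cause was not tested. With the mean of all probe sets, Vcan between the tumours was −1.77 and Pcdh15 −2.68, and Pdgfra in medulloblastoma against normal brain was 2.36, all still called. The genotype comparisons called 0 members in every alternative. Values near the pseudocount, such as Gpr17 in MB A6, have little order.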
